A study of Mus musculus with 16 samples.

Results

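Mutations in many human genes cause hereditary deafness, and many of these genes act in the mature inner ear. The mouse counterparts of 48 such genes were followed in progenitors of the organ of Corti, taken before hair cells mature. They were found by gene symbol among the 48709 genes of the deposited RNA tables, and each symbol matched 1 row. The study, on how Yap and Tead factors govern the size of the organ of Corti, holds 16 libraries from cells sorted by fluorescence from mouse embryonic cochlea. The E12.0 cells were positive for Sox2-GFP and the E13.5 cells for p27-GFP, so age and reporter changed together and their effects cannot be told apart. Each stage had 2 RNA libraries, 3 ATAC-seq libraries (which mark open chromatin) and 2 H3K27ac CUT&RUN libraries (a mark of active promoters and enhancers), and E12.0 also had 2 pan-Tead CUT&RUN libraries. No other genotype or treatment is given in the labels, and the construction of the reporter lines is not described there. Whether replicates were separate litters is not stated in the labels, and the tests measure only the spread between these libraries, which may be technical.

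The organ of Corti is the sensory strip of the cochlea. Its hair cells carry a bundle of actin-filled stereocilia that converts sound into current through channels opened by tip links, and the surrounding epithelium recycles potassium and builds the tectorial membrane. Progenitors at these ages leave the cell cycle and only later form hair cells and supporting cells. The deafness genes are grouped here by role: motors and adhesion proteins of the bundle, the transduction channel complex, actin-bundling proteins, cytoskeletal proteins used by most cells, ion transport, junctions and matrix, transcription factors, and enzymes or signalling proteins.

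RNA totals were 9412326 and 9810603 expected counts in the E12.0 pair and 17057751 and 19570946 in the E13.5 pair. The mitochondrial ribosomal RNA mt-Rnr2 took 17.0% and 13.2% of the E12.0 counts and 0.295% and 0.180% of the E13.5 counts. TPM divides by the library total, and the median of all genes tested was higher at E13.5 by 0.76 on the log2(TPM + 1) scale but by 0.050 in the edgeR test, so TPM is used here for levels and CPM, counts scaled by TMM to a common library size, for changes. Sox2 and Cdkn1b, which encodes p27, are the genes named in the sorting reporters. All 9 prosensory markers had a TPM of 1 or more in both E13.5 libraries and 8 of 9 in both at E12.0. Sox2 stood at 21.3 and 28.8 TPM in the E12.0 pair and 181.1 and 196 in the E13.5 pair. Cdkn1b stood at 4.35 and 5.68 TPM in the E12.0 pair and 119 and 97.9 in the E13.5 pair. The early hair cell list (8 genes) summed to 2.64 and 9.36 TPM at E12.0 and to 9.09 and 17.8 at E13.5, and 2 of its members, Barhl1 and Ccer2, were at 0 in both E12.0 libraries. Of 11 markers of mature hair cells, 10 were under 1 TPM in both E12.0 libraries and 9 in both E13.5 libraries (Cacna1d and Fscn2 being the others), and the list summed to 2.74 to 3.47 and to 4.78 to 9.79 TPM. Melanocyte markers (5 genes) summed to 0.153 and 0.0828 TPM at E12.0 and to 2.90 and 28.9 at E13.5. Among mesenchyme markers (9 genes) the sums were 729 to 822 TPM at E12.0 and 427 to 531 at E13.5, nearly all from Lum, while Postn stood at 14.0 and 23.9 against 3.62 and 11.2 TPM. Pdgfra, Col3a1 and Col1a2 reached 1.74 to 3.69 TPM at most, and Col1a1, Tbx18, Twist1 and Prrx1 stayed under 1 TPM in each library. Neuron markers (7 genes) summed to 18.3 and 29.6 against 30.7 and 25.1 TPM, and glial markers (4 genes) to 339 and 508 against 195 and 188, mainly from Erbb3. Endothelial markers (4 genes) summed to less than 1 TPM in each library, and 5 of the 6 blood and immune markers were silent at both stages, Cd68 being the exception. In these bulk samples fewer cells of a type and less RNA per cell cannot be told apart.

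A gene is called expressed here at a TPM of 1 or more in both RNA libraries of a stage, silent when it is under 1 in both, and split otherwise. Its start is called open when a peak overlapped the 1000 bases either side of a RefSeq start in all 3 ATAC libraries of a stage, and acetylated when an H3K27ac peak did so in both libraries. The sources list a start for 41 of the 48 genes. For the other 7 (Ush1g, Otof, Kcnq1, Kcne1, Loxhd1, Ptprq and Diaph1) either end of the gene's span was used.

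By these rules 29 of the 48 deafness genes were expressed at E12.0 and 30 at E13.5, where 52.0% and 56.2% of protein-coding genes were. Silent genes numbered 19 at E12.0 and 14 at E13.5. The 29 genes expressed at E12.0 were also expressed at E13.5. Tmie went from silent to expressed, and Cdh23, Slc26a5, Kcne1 and Coch went from silent to split. The 14 genes silent at both stages separated by chromatin. Lhfpl5, Kcnq1, Pou3f4 and Esrrb were open at both stages, Myo3a, Ush1g, Ptprq and Gipc3 met the rule at E13.5 only, and Myo15, Tmc1, Loxhd1, Otof, Grxcr1 and Strc met it at neither. Of 7820 protein-coding genes silent at both stages, 19.8% were open at both, 9.17% at E13.5 but not E12.0, and 70.7% at neither, against 4, 4 and 6 of these 14. When either end of the gene's span was used in place of the start, Tmc1, Myo3a and Gipc3 were open in all 6 libraries. Esrrb was then open in 2 of 3 libraries at E12.0. The other 10 stayed in their class. Of these, Ush1g, Otof, Kcnq1, Loxhd1 and Ptprq were already placed by either end of the span and could not change. No test was made of these shares, since the genes are not replicates.

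**Figure D1:**
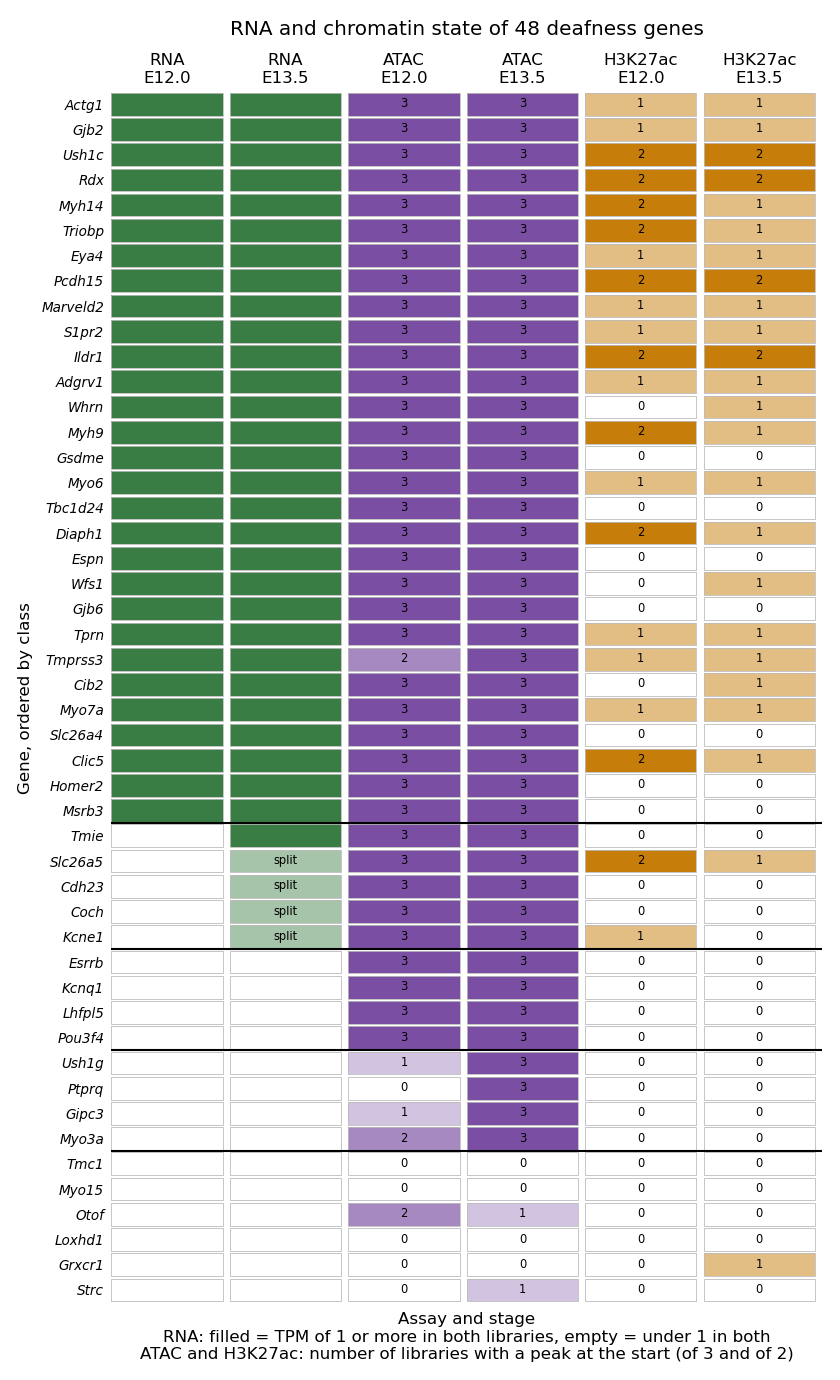
Each row is a deafness gene, and columns give its RNA class and the number of ATAC (of 3) and H3K27ac (of 2) libraries with a peak at its start at each stage. Horizontal lines part the 29 genes expressed at both stages, the 5 silent at E12.0 only, and the silent genes that were open at both stages (4), at E13.5 only (4) or at neither (6).

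The promoters below show what an open start without RNA looked like beside an open start that gained RNA and a closed one. Each is the 300 bases from 250 before to 50 after a RefSeq start on GRCm38.p6, written 5′ to 3′ along the gene's strand, with CpG dinucleotides in capitals. Lhfpl5, Pou3f4 and Esrrb are the silent genes open at both stages for which a promoter was given. Tmie, which gained RNA, and Grxcr1 were added after their values were seen. Grxcr1 had no ATAC peak at its start or at either end of its span in any library. An H3K27ac peak lay at its start in E13.5 replicate 2 (fold 3.01).
Lhfpl5: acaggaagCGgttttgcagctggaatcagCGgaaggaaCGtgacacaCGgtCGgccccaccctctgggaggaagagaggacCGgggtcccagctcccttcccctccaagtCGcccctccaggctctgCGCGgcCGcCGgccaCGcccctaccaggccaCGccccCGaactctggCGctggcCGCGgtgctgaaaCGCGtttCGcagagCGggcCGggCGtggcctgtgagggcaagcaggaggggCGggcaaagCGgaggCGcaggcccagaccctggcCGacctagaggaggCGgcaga
Pou3f4: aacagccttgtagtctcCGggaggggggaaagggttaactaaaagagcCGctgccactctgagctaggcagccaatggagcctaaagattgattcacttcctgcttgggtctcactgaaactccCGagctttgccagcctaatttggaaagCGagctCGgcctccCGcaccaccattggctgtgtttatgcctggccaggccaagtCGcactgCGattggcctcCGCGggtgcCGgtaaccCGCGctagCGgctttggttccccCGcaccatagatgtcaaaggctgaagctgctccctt
Esrrb: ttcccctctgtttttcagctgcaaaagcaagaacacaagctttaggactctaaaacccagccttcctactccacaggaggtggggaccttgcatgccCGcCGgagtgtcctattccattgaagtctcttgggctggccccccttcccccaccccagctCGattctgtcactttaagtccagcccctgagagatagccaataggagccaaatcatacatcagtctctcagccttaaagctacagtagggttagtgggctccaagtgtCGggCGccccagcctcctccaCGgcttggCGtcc
Tmie: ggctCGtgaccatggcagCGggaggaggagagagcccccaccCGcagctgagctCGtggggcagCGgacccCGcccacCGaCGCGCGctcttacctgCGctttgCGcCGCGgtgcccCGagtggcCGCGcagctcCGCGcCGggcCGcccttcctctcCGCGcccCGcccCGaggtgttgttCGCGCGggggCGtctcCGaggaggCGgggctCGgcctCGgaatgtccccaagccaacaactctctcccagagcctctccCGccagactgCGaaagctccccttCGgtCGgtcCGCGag
Grxcr1: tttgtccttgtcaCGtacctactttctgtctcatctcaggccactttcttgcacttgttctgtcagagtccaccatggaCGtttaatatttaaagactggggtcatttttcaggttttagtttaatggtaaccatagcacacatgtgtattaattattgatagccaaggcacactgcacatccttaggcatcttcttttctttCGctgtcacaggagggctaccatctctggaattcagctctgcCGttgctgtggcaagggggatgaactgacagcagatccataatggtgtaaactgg
The Lhfpl5 window (chr17:28575469-28575768, plus strand) held 28 CpG and that of Pou3f4 (chrX:110814129-110814428, plus strand) 15. The Esrrb window (chr12:86421394-86421693, plus strand) held 7. The Tmie window (chr9:110880024-110880323, minus strand) held 39, and the Grxcr1 window (chr5:68031585-68031884, plus strand) held 4. ATAC peaks overlapped the first 4 windows in all 6 libraries and the Grxcr1 window in none.

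Between the stages, 32 of the 48 deafness genes had enough counts to be tested, and 9 were higher and 5 lower at E13.5 by edgeR's quasi-likelihood F test (Benjamini-Hochberg adjusted p under 0.05 over 15982 genes, 2 libraries against 2). The genes that rose were Myo7a, Ush1c, Tmie, Cib2, Triobp, Ildr1, Msrb3, Wfs1 and Tbc1d24, and those that fell were Espn, Actg1, Diaph1, Esrrb and Homer2. Over all genes tested 22.4% were higher and 23.5% lower, 45.9% in all, so the 14 called of 32 were close to that background. The median log2 fold change was 0.44 over the 32 (also with Esrrb at its bound) and 0.050 over all genes. The log2(TPM + 1) scale moved the split of all genes from 3579 higher and 3761 lower to 6821 and 2101, and that of the deafness genes to 15 and 0. Tested genes that did not pass are given below in TPM, which carries this shift, beside an edgeR log2 fold change from TMM-scaled counts. Their TPM can therefore rise where that fold change is near 0. The other 16 genes had too few counts for the test.

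**Figure D2:**
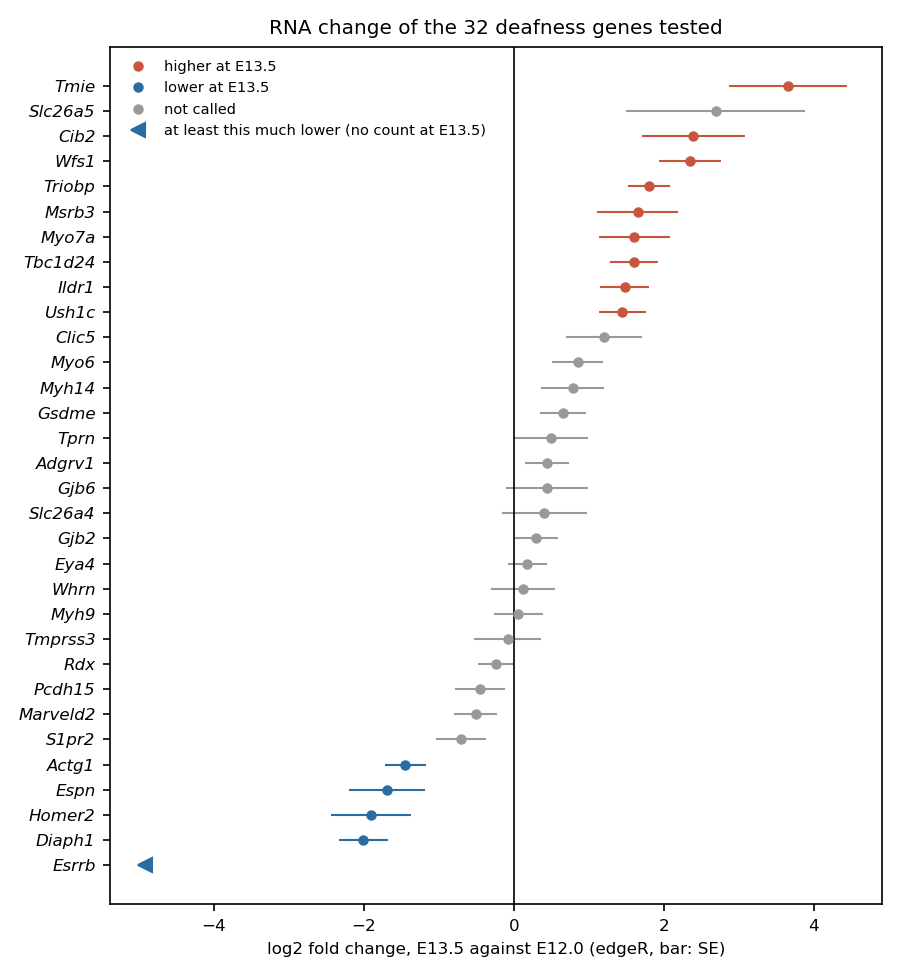
Points give the log2 fold change of E13.5 against E12.0 for the 32 deafness genes tested, with the standard error as a bar (edgeR, 2 libraries per stage). Tmie lies farthest right at 3.66, the 9 genes that rose are red and the 5 that fell blue, and the arrowhead marks Esrrb, which had no count at E13.5, at its smallest possible fall.

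Among the motors and Usher proteins of the hair bundle (10 genes), Myo7a and Ush1c rose, 4 did not pass the test and 4 were not tested. Ush1c encodes harmonin, the scaffold at the upper end of the tip link. It was at 89.8 and 57.6 CPM in the E12.0 pair and 248 and 153 in the E13.5 pair, so the stages did not overlap, and its log2 fold change was 1.44 (SE 0.32, edgeR adjusted p = 0.00416). Myo7a, the myosin motor of Usher syndrome type 1, was at 7.29 and 4.12 CPM in the E12.0 pair and 19.1 and 15.6 in the E13.5 pair. Its rise of 1.61 on the log2 scale (SE 0.47, edgeR adjusted p = 0.0185) did not overlap between stages but lost its call without E12.0 replicate 2 (adjusted p = 0.0838), and also when replicate 1 of E13.5 was left out (0.0654).

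The 4 genes of this group that were tested and did not pass were above the expression threshold at both stages. Pcdh15, the protocadherin of the lower part of the tip link, stood at 15.0 and 26.3 TPM in the E12.0 pair and 57.5 and 27.1 in the E13.5 pair (edgeR log2 fold change −0.45, SE 0.33, adjusted p = 0.288, and 0.96 on the log2(TPM + 1) scale). Without E13.5 replicate 1 the change was −1.05 and passed the test (adjusted p = 0.0310), and without replicate 2 it was −0.035. Cdh23, its partner in the upper part of the tip link, was not tested. Cdh23 had 1 and 0 counts in the E12.0 pair and 26 and 2 in the E13.5 pair, or 2.27 and 0.210 TPM. Its RNA at E13.5 therefore rested on replicate 1. Adgrv1, the giant ankle-link receptor, stood at 17.8 and 19.2 TPM in the E12.0 pair and 26.7 and 22.7 in the E13.5 pair (log2 fold change 0.44, SE 0.29, edgeR adjusted p = 0.237). Whrn, the scaffold that binds it, stood at 33.4 and 9.29 TPM in the E12.0 pair and 21.2 and 12.3 in the E13.5 pair, a spread within each stage wider than the difference between them (0.12, SE 0.43, edgeR adjusted p = 0.841). Myo6, a myosin that moves towards the minus end of actin, stood at 4.87 and 12.7 against 22.4 and 14.6 TPM (0.85, SE 0.34, edgeR adjusted p = 0.0612).

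The remaining motors and scaffolds were silent. Myo15, which carries whirlin to stereocilia tips, had 3 and 5 counts in the E12.0 pair and 3 and 1 in the E13.5 pair. Ush1g, the scaffold SANS, had 2 counts in E12.0 replicate 1 and none in the other 3 libraries. Myo3a, a motor of stereocilia tips, had no count. A count of 0 in both libraries of a stage allows up to 0.190 CPM at E12.0 and 0.0673 CPM at E13.5 (3 counts over both libraries, counting error only), so lower levels were not detectable at this depth.

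In the transduction, synapse and motility group (7 genes) Tmie and Cib2 rose, while the channel itself stayed silent. Tmie, a subunit of the transduction channel complex, was at 0.550 and 0.353 CPM in the E12.0 pair and 5.67 and 5.81 in the E13.5 pair. The stages did not overlap, and the rise of 3.66 on the log2 scale (SE 0.79, edgeR adjusted p = 0.00374) was the farthest from 0 among the genes that rose. Its TPM went from 0.229 and 0.718 to 4.82 and 7.23. Cib2, which binds the channel, was at 1.24 and 1.29 CPM in the E12.0 pair and 4.91 and 8.48 in the E13.5 pair (log2 fold change 2.39, SE 0.69, edgeR adjusted p = 0.0164). The stages did not overlap, but the call was lost without replicate 1 (adjusted p = 0.0591) or 2 (0.0535) of E12.0 and without replicate 2 of E13.5 (0.128). Cib2 overlaps Sh2d7, and the sources do not say whether counting used strand, so reads of the pair cannot be told apart. Cdh23, Ush1g, Strc and Tbc1d24 also overlap another protein-coding gene, with the same limit.

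Tmc1, the pore-forming channel protein, had at most 0.213 TPM in any library. Lhfpl5, which joins the channel to the tip link, had at most 0.521 TPM, and Loxhd1, a stereocilia protein needed for hair cell function, at most 0.133. Otof, the calcium sensor of the hair cell synapse, had at most 0.237 TPM. All 4 were silent at both stages. Slc26a5, the motor protein prestin of outer hair cells, stood at 0 and 0.188 TPM in the E12.0 pair and 1.70 and 0.945 in the E13.5 pair, on either side of the threshold (edgeR adjusted p = 0.0883). Its counts were 3 over the E12.0 pair and 55 over the E13.5 pair, a ratio of 6.48 in CPM with an exact 95% counting interval of 2.11 to 32.4. That interval leaves out the spread between libraries, which was beyond counting noise. Beside these values, Atoh1, the factor that starts hair cell formation, went from 0.154 and 0.665 TPM to 2.74 and 5.66 (2.57 on the log2 scale, SE 0.90, edgeR adjusted p = 0.0387). It was the 1 gene called of 4 tested in the early hair cell list, whose median log2 fold change was 0.034. Pou4f3, another hair cell factor on it, stood at 0.137 and 3.93 against 0.390 and 1.36 TPM (−1.90, edgeR adjusted p = 0.210). The part of early hair cells in the rises of the bundle and transduction genes was not tested.

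The bundle structure group (9 genes) held 1 gene that rose, 1 that fell, 3 that did not pass the test and 4 that were silent and untested. Triobp, which bundles actin in the rootlet, was at 23.4 and 33.8 CPM in the E12.0 pair and 97.4 and 102 in the E13.5 pair (log2 fold change 1.80, SE 0.28, edgeR adjusted p = 0.000642), with no overlap. Espn, which crosslinks the actin of stereocilia, moved the other way, from 26.5 and 12.7 CPM to 4.48 and 7.67 (−1.69, SE 0.51, edgeR adjusted p = 0.0202). Its CPM values did not overlap, but the call was lost on the log2(TPM + 1) scale (adjusted p = 0.253), without E12.0 replicate 1 (0.184) and without E13.5 replicate 1 (0.0743).

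Rdx, which ties actin to the membrane, was the most abundant of the group at 75.9 and 121 TPM in the E12.0 pair and 139 and 151 in the E13.5 pair. Its log2 fold change was −0.24 by edgeR (SE 0.24, adjusted p = 0.444) and 0.59 on the log2(TPM + 1) scale. Clic5, which works with radixin at the bundle base, stood at 1.06 and 3.79 against 7.37 and 11.4 TPM (1.20, SE 0.50, edgeR adjusted p = 0.0732). Tprn, another protein of the bundle base, stood at 5.71 and 7.83 against 8.996 and 7.52 TPM (0.49, SE 0.50, edgeR adjusted p = 0.451). Strc (stereocilin, which links stereocilia tops), Grxcr1 and Gipc3 had no count in any of the 4 libraries. Ptprq, a phosphatase of the shaft connectors, had none at E12.0 and 0.0294 and 0.0128 TPM at E13.5.

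The cytoskeletal genes used by most cells (4 genes) were all expressed, and 2 of them fell. Actg1, cytoplasmic gamma actin, was the most abundant deafness gene in each library at 3274 and 4270 TPM in the E12.0 pair and 2353 and 2636 in the E13.5 pair. It was at 4725 and 4844 CPM in the E12.0 pair and 1578 and 1929 in the E13.5 pair, without overlap (log2 fold change −1.45, SE 0.27, edgeR adjusted p = 0.00183). This gene has near-identical copies in the genome, so its count is uncertain, and its adjusted p was 0.108 on the log2(TPM + 1) scale. Diaph1, a formin that nucleates actin filaments, fell from 53.9 and 71.1 CPM to 18.6 and 12.5 (−2.01, SE 0.33, edgeR adjusted p = 0.000858), with an adjusted p of 0.0677 on that scale. The non-muscle myosins did not pass the test. Myh9 stood at 5.80 and 12.97 against 26.4 and 20.3 TPM. Its CPM overlapped, at 36.3 and 67.0 against 55.5 and 52.3 (log2 fold change 0.061, SE 0.32, edgeR adjusted p = 0.890). Myh14 stood at 88.4 and 34.0 against 59.7 and 56.7 TPM (0.78, SE 0.42, edgeR adjusted p = 0.147).

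Of the ion transport and gap junction genes (5 genes), 3 were expressed at both stages and none passed the test. Gjb2, connexin 26 and a frequent cause of human deafness, stood at 98.1 and 118 TPM in the E12.0 pair and 180.4 and 297 in the E13.5 pair. Its CPM overlapped, at 201 and 192 against 180 and 303 (log2 fold change 0.30, SE 0.28, edgeR adjusted p = 0.412). Its partner Gjb6, connexin 30, stood at 3.95 and 5.12 against 6.84 and 16.1 TPM. In CPM Gjb6 was at 7.02 and 7.18 against 5.91 and 13.3 (0.44, SE 0.55, edgeR adjusted p = 0.540). Both were highest in E13.5 replicate 2, in which the markers of cochlear roof and nonsensory epithelium (4 genes) also summed to 1064 TPM against 580.5 in replicate 1, and 172 and 286 at E12.0. Most of that sum was Oc90, at 449 TPM in E13.5 replicate 1 and 896 in replicate 2, while Otx2 stood at 6.43 and 5.08. The part of those cells in the connexin levels was not tested. Slc26a4, the anion exchanger pendrin, stood at 4.93 and 2.02 against 7.58 and 9.78 TPM (0.41, SE 0.57, edgeR adjusted p = 0.584).

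The potassium channel of the stria vascularis was close to absent as RNA. Kcnq1, its pore subunit, had no count in 3 libraries and 13.1 expected counts (0.687 TPM) in E13.5 replicate 2, and its span holds the antisense gene Kcnq1ot1. Kcne1, its auxiliary subunit, stood at 0.101 and 0.346 TPM in the E12.0 pair and 1.02 and 0 in the E13.5 pair.

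Among genes of junctions and matrix (3 genes), Ildr1 rose. Ildr1, of the junctions where 3 cells meet, went from 17.7 and 15.5 CPM to 39.8 and 52.8 (log2 fold change 1.48, SE 0.32, edgeR adjusted p = 0.00411), with no overlap. Marveld2, tricellulin, acts at the same junctions but stood at 26.1 and 32.6 against 35.3 and 27.3 TPM (−0.51, SE 0.28, edgeR adjusted p = 0.160, and 0.087 on the log2(TPM + 1) scale). Coch, a secreted matrix protein of the fibrocytes, stood at 0.195 and 0 against 1.20 and 0.321 TPM.

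Of the transcription factors (3 genes), Eya4 was expressed and Pou3f4 and Esrrb were silent by the rule with open starts, though the RNA of Esrrb fell. Eya4, a phosphatase and transcriptional coactivator, was expressed at 18.03 and 31.3 TPM in the E12.0 pair and 52.7 and 45.1 in the E13.5 pair. Its CPM overlapped, at 64.2 and 87.3 against 91.8 and 80.1 (log2 fold change 0.18, SE 0.26, edgeR adjusted p = 0.599). Pou3f4, a factor of the otic mesenchyme, was without counts at E12.0 and reached 0.154 and 0.0336 TPM at E13.5. Esrrb is an orphan nuclear receptor. It fell from 8 and 24 counts (1.10 and 2.83 CPM) at E12.0 to none in either E13.5 library (edgeR adjusted p = 0.00259). The fall was 30.2-fold or more when the E12.0 group CPM is set against 3 counts over both E13.5 libraries. That bound takes the E12.0 level as exact and leaves out the spread between libraries. The E12.0 TPM of Esrrb was 0.362 and 0.975, just under the threshold, so it is silent by the rule at both stages. Its adjusted p was 0.0800 on the log2(TPM + 1) scale.

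The enzymes, signalling proteins and others (7 genes) were all expressed at both stages, and 3 rose and 1 fell. Wfs1, wolframin of the endoplasmic reticulum, went from 4.54 and 4.59 CPM to 25.2 and 21.3 (log2 fold change 2.35, SE 0.42, edgeR adjusted p = 0.00135). Tbc1d24, which acts in vesicle traffic, went from 16.4 and 15.1 CPM to 53.5 and 41.9 (1.60, SE 0.32, edgeR adjusted p = 0.00245), and it overlaps Ntn3. Msrb3, a methionine sulfoxide reductase, went from 3.44 and 3.77 CPM to 9.10 and 13.6 (1.65, SE 0.54, edgeR adjusted p = 0.0285). None of these overlapped between stages, but the call of Msrb3 was lost without replicate 1 (adjusted p = 0.0819) or 2 (0.0628) of E12.0 and without replicate 2 of E13.5 (0.156). Homer2, a scaffold for calcium signalling, fell from 18.7 and 12.01 CPM to 2.91 and 5.26 (−1.91, SE 0.53, edgeR adjusted p = 0.0138). Its TPM overlapped between the stages, at 6.12 and 3.85 against 2.63 and 5.44. Its call was lost on the log2(TPM + 1) scale (adjusted p = 0.637), without E12.0 replicate 1 (0.0810) and without E13.5 replicate 1 (0.0542).

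Gsdme, a gasdermin, stood at 8.83 and 8.14 against 21.1 and 22.8 TPM (0.65, SE 0.30, edgeR adjusted p = 0.103). Tmprss3, a membrane serine protease, stood at 4.58 and 5.47 against 8.54 and 8.21 TPM (−0.085, SE 0.45, edgeR adjusted p = 0.889, and 0.64 on the log2(TPM + 1) scale). S1pr2, a receptor for sphingosine 1-phosphate, stood at 26.1 and 20.4 against 22.5 and 29.6 TPM (−0.71, SE 0.33, edgeR adjusted p = 0.103, and 0.16 on that scale).

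**Figure D3:**
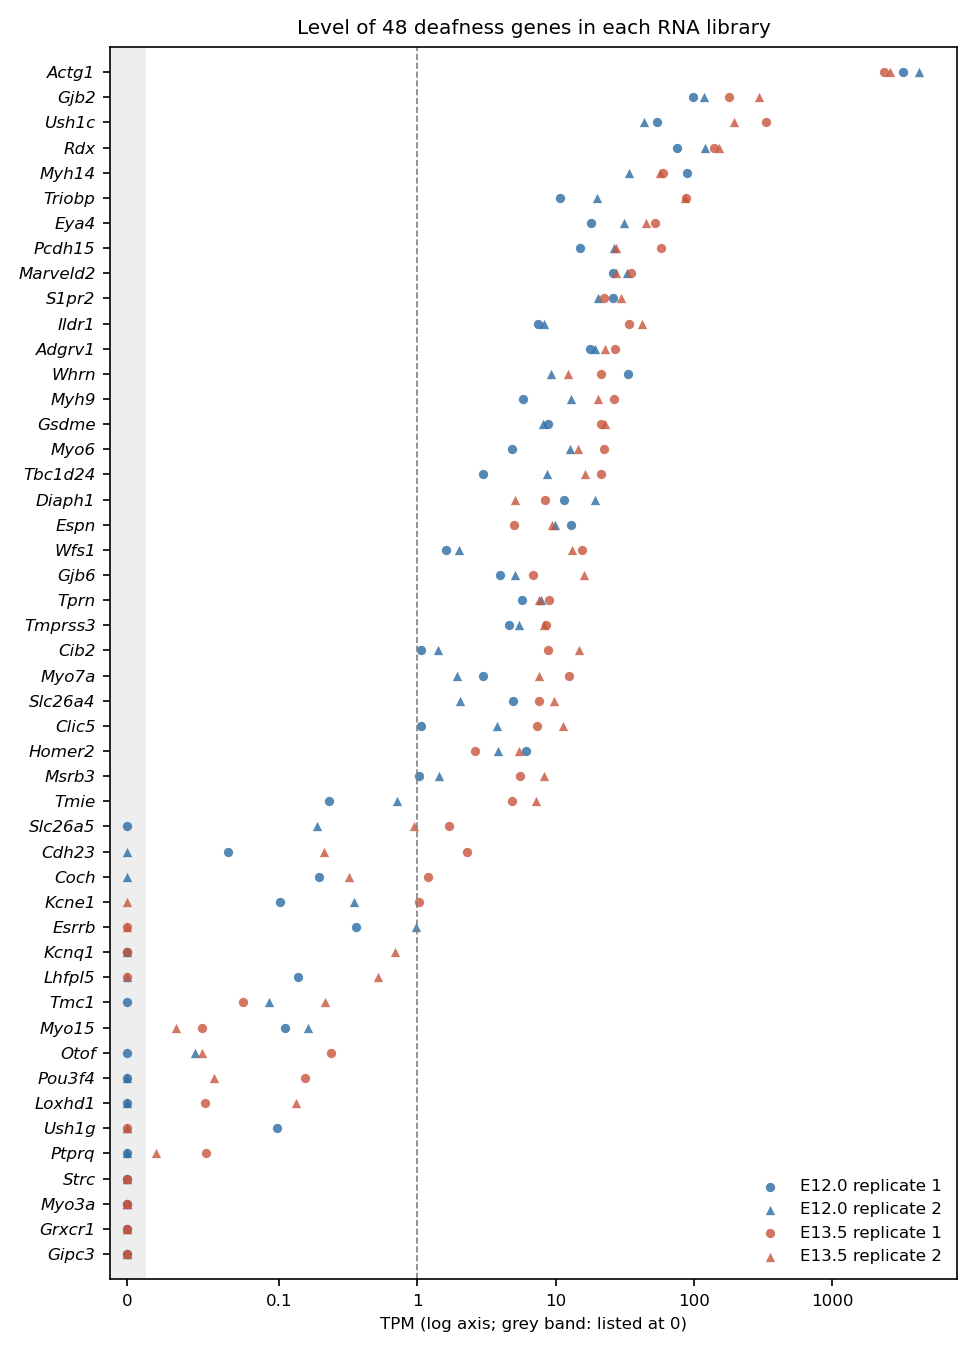
Each point is the TPM of a deafness gene in 1 RNA library on a log axis, blue for E12.0 and red for E13.5, with genes at 0 in the grey band and the threshold of 1 TPM dashed. Actg1 lies near 2353 to 4270, while Strc, Myo3a, Grxcr1 and Gipc3 lie at 0 in all 4 libraries.

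Open chromatin was found at nearly every expressed deafness gene. At E12.0 28 of 29 expressed genes had an open start, where 94.4% of expressed protein-coding genes did, and at E13.5 30 of 30, where 95.6% did. The exception at E12.0 was Tmprss3, with a peak in 2 of 3 libraries. Over all 48 genes, 37 starts were open at E12.0 (63.6% of protein-coding genes and 42.7% of all genes) and 42 at E13.5 (69.2% and 48.6%). The starts of Tmie, Slc26a5, Cdh23, Coch and Kcne1 were open in all 3 E12.0 libraries, when these genes were silent. For Kcne1 this was at either end of its span, and its counts were 2 and 3 in the E12.0 pair and 5 and 0 in the E13.5 pair. Of the silent genes, 9 of 19 were open at E12.0 and 8 of 14 at E13.5, or 47.4% and 57.1%, where 26.3% and 30.6% of silent protein-coding genes were.

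**Figure D4:**
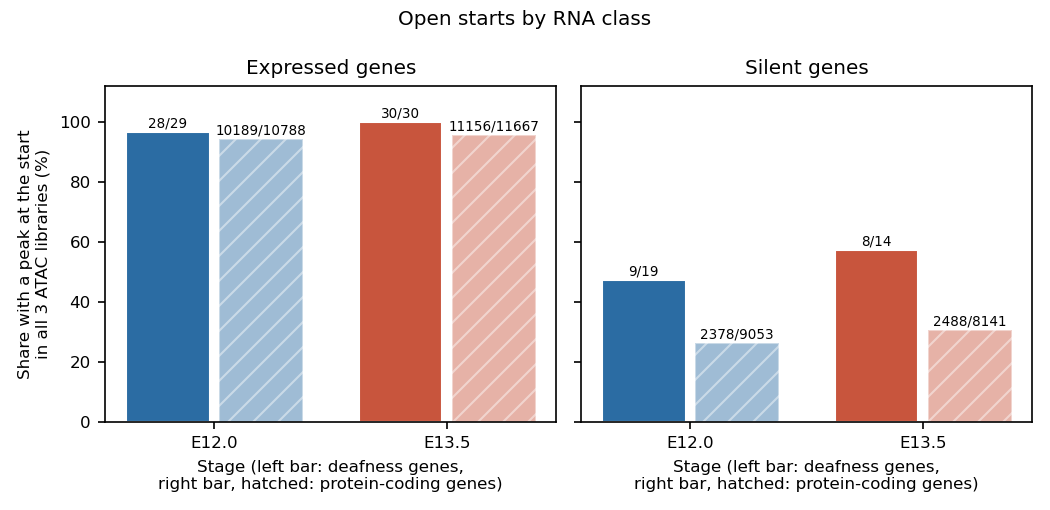
Bars show the share of expressed (left) and silent (right) genes with a peak at the start in all 3 ATAC libraries, solid for deafness genes and hatched for protein-coding genes, with the counts above. Expressed genes are nearly all open in both sets, while 9 of 19 and 8 of 14 silent deafness genes are.

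The silent genes open at both stages had peaks of moderate to high fold, the authors' ratio of signal to local background, used here as a description. At Pou3f4 the best peak had a fold of 4.56 to 8.66 in the E12.0 libraries and of 13.4 to 16.3 at E13.5. At Lhfpl5 it was 3.64 to 11.4 and 9.08 to 11.9, at Kcnq1 4.68 to 8.43 and 6.74 to 10.02, and at Esrrb 3.53 to 5.99 and 8.14 to 9.28. Esrrb had an open start in all 6 libraries while its RNA went from 32 counts to none.

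The 4 genes open only at E13.5 were not alike. Ptprq had no peak at either end of its span in the 3 E12.0 libraries and 1 of fold 6.55 to 7.996 in each E13.5 library, at chr10:107719930-107720486, over the end of the gene's span with the higher coordinate. Myo3a already had a peak in 2 of 3 E12.0 libraries (fold 3.01 and 4.59) and had 8.83 to 9.58 at E13.5. Ush1g and Gipc3 had a peak in 1 of 3 E12.0 libraries and weak ones at E13.5, with a fold of 2.20 to 4.12 and 2.39 to 2.86. The E13.5 ATAC lists were longer (208061 to 226496 peaks) than those of E12.0 (112621 to 143817). When each list was held to its 112621 strongest peaks, Ptprq and Myo3a still had a peak in all 3 E13.5 libraries, Gipc3 had 1 in 1 library and Ush1g in none.

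Of the 6 silent genes that were not open, Myo15, Loxhd1 and Grxcr1 had no ATAC peak at the start in any of the 6 libraries. Tmc1 had none at its listed start either, but that start lies inside the gene's span (chr19:20783456-21037126). An open region of all 6 libraries (fold of 6.74 or less) lay 351 bases beyond the end of the span with the higher coordinate, at chr19:21037477-21037934, so the call of Tmc1 holds for the listed start alone. Otof had one in 2 E12.0 libraries and 1 E13.5 library, and Strc in 1 E13.5 library.

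The H3K27ac lists differed between replicates. A peak lay at 42.1% and 29.4% of protein-coding starts in the E12.0 pair and 52.1% and 16.8% in the E13.5 pair. Starts with H3K27ac in both libraries numbered 10 of 48 at E12.0 (protein-coding 24.8%) and 4 at E13.5 (15.2%), and those with it in at least 1 library 21 (46.7%) and 24 (53.7%). Without replicate 2 the counts were 20 at E12.0 and 23 at E13.5. Ush1c, Rdx, Pcdh15 and Ildr1 had the mark in all 4 libraries. Triobp, Myh9, Myh14, Diaph1, Clic5 and Slc26a5 had it in both E12.0 libraries and 1 at E13.5. Slc26a5 was the single silent gene marked in both E12.0 libraries. None of the 8 silent genes open at E13.5 had the mark in either E13.5 library, where 675 of 2488 such protein-coding genes (27.1%) had it in at least 1. Among the 29 genes expressed at both stages, 7 (Espn, Gjb6, Gsdme, Homer2, Msrb3, Slc26a4 and Tbc1d24) had no H3K27ac peak at the start in any library, against 10.3% of protein-coding genes expressed at both.

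Tead peaks, measured at E12.0 only, lay at the start of Myh9 and Myh14 in both libraries. These 2 of 48 stand beside 3.64% of protein-coding genes. In at least 1 library a peak lay at 17 of 48 starts (35.4%), against 37.6% of protein-coding genes. The 2 Tead lists were unequal, with 18250 peaks in replicate 1 and 58410 in replicate 2, at 4.94% and 36.3% of protein-coding starts. In replicate 1 the best peak had a −log10 q of 2.59 at Myh9 and 0.666 at Myh14.

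Away from the starts, 1174 open regions, merged over the 6 ATAC libraries, lay within 10 kb of the 48 gene spans. Of these 162 (13.8%, genome 10.1%) were found in all libraries, 62 in all E13.5 and no E12.0 libraries (5.28%, genome 6.60%) and 0 in all E12.0 and no E13.5 libraries (genome 0.0465%). With every list held to the same length the 62 became 24 (3.24%, genome 3.43%) and the 0 became 1. With peaks at −log10 q of 2 or more the 62 became 89 (11.6%, genome 12.4%) and the 0 stayed 0. Pcdh15 held 14 of the 62 in a span of 1554 kb and Adgrv1 10 in 538 kb. Among silent genes Ptprq held 4, Grxcr1 3, Tmc1, Otof and Kcnq1 2 each, and Myo3a 1.

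For H3K27ac, 853 merged regions lay near the genes, of which 22 were in all 4 libraries (2.58%, genome 1.97%). Another 9 were in both E12.0 libraries only (1.06%, genome 0.877%) and 13 in both E13.5 libraries only (1.52%, genome 1.40%). The 13 became 7 with lists of equal length (1.09%, genome 0.885%) and 4 at −log10 q of 2 or more (1.03%, genome 0.853%). Tmc1, Grxcr1 and Ptprq, all silent, held 2 of the 13 each. In Tmc1 they lay 130462 and 22907 bases from the start, at chr19:20823176-20823740 and chr19:20977109-20977382. In Grxcr1, which had no ATAC peak at its start in any library, they lay inside the gene at chr5:68064293-68064769 and chr5:68088626-68089264. A single place gained both marks in every E13.5 library and none at E12.0. It lay inside Pcdh15 at chr10:74512244-74512860 (ATAC fold 7.80 to 11.0), with H3K27ac over chr10:74512486-74512722 (fold 3.04 to 4.74) and a shared length of 237 bases.

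The CpG content of the promoters is given by the same classes, with no test. Each gene was counted at its first listed start, which for Esrrb is not the window printed above. That first Esrrb start had ATAC peaks in fewer libraries than the printed one, whose peaks set the class of the gene. Over the 41 genes with a promoter the median CpG count was 17 in 300 bases, against 13 over 17491 protein-coding promoters. It was 18 for the 28 genes expressed at both stages, 25 for Tmie, Slc26a5, Cdh23 and Coch, 15 for the 3 silent genes open at both stages and 23 for Myo3a and Gipc3, which were open at E13.5 only. The 4 silent genes that were not open at the listed start (Myo15, Tmc1, Grxcr1 and Strc) held 1 to 5, with a median of 2.5. Protein-coding promoters held a median of 22 CpG where the gene was at 1 TPM or more in each RNA library and 3 where it was under 1 in each. Low CpG did not go with silence in each case: Gjb6 and Slc26a4, with 1 listed start each, held 6 each. At the first listed start Rdx, at 75.9 TPM or more, held 3 and Myo7a 6. Both have another listed start that was not counted.

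**Figure D5:**
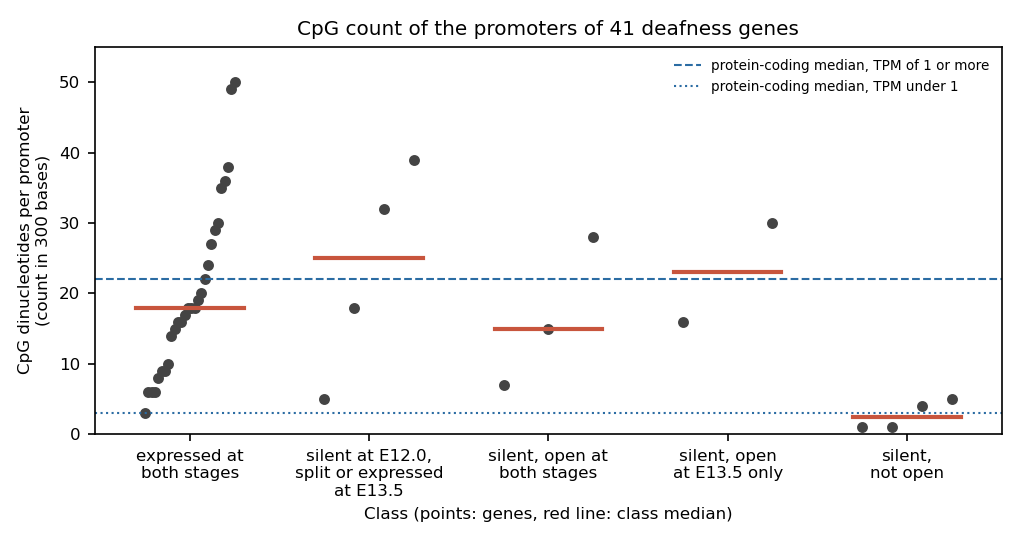
Points give the CpG count in the 300-base promoter at the first listed start of each of 41 deafness genes, by class. Red lines are class medians, and protein-coding medians are dashed (22, expressed) and dotted (3, silent). The silent genes that were not open lie at 1 to 5, below the other genes silent at both stages, which lie at 7 to 30. The Esrrb point is from a start with ATAC peaks in fewer libraries than the start that set its class.

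Motifs were searched on both strands of the same 300 bases, at the first listed start. The CAGCTG in the printed Esrrb window is therefore not among the counts. GGGCGG, the GC box, was in 26 of 41 promoters (63.4%), against 46.3% of protein-coding ones, and in none of the 4 promoters of silent genes that were not open, where 18.1% of protein-coding promoters under 1 TPM in each RNA library held it. TATAAA was in 5 (12.2%, protein-coding 13.3%). The E-box letters CAGCTG were in 7 (17.1%, protein-coding 15.1%) and CAGATG in 3 (7.32%, protein-coding 14.8%). GGAATG, the core letters of the Tead motif, was in 4 (9.76%, protein-coding 13.4%), namely Wfs1, Homer2, Myo6 and Tmie. These are matches of letters in a window and not binding sites.

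A second list of 71 further deafness genes was measured the same way, of which 59 were tested, 18 were higher and 8 lower at E13.5 (22.4% and 23.5% of all genes tested were), with a median log2 fold change of −0.0025 against 0.050 for all genes. Tecta, a main protein of the tectorial membrane, rose from 90.5 and 99.2 CPM to 908 and 1141 (log2 fold change 3.43, SE 0.27, edgeR adjusted p = 1.5e-05). Otogl rose by 3.10, Col11a2 by 2.97 and Hgf by 2.62 on the log2 scale, the first of these another protein of acellular membranes and the second a fibrillar collagen. Clrn1, the Usher type 3 protein, fell from 130 and 106 CPM to 6.53 and 13.9 (−3.53, SE 0.38, edgeR adjusted p = 7.0e-05). Snai2 fell from 34 counts over the E12.0 pair to 1 over the E13.5 pair, a ratio of 0.0104 in CPM. Its exact 95% counting interval was 0.000256 to 0.0620, with the spread between libraries left out. Cemip fell by 2.14 on the log2 scale. Lars2, a mitochondrial leucyl-tRNA synthetase, went from 609 and 1042 CPM to 70.5 and 103 (−3.25), alongside the mt-Rnr2 share given above, whose part in it was not tested. As in the first list, genes of the mature ear such as Kcnj10 and Bsnd were under 1 TPM in each RNA library.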

How the data were processed

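RNA was measured in 4 libraries, open chromatin in 6, H3K27ac in 4 and Tead in 2, grouped by title. The deposited RNA tables give, per the file headers, an expected count (an estimate, not always whole) and an effective length in bases for each Ensembl gene; the RNA was selected for poly(A), per the labels' protocols. TPM was computed here from those expected counts and lengths. Each library has its own deposited peak list, with a fold (ratio of signal over local background), −log10 p and −log10 q for each peak as the authors gave them. The deposited score column was not used. MACS2, STAR and UMI-tools are named without versions in the submitters' processing notes, with the build GRCm38, also called mm10. Per the labels' protocols, the CUT&RUN library kit differed between E12.0 replicate 1 and the other H3K27ac libraries.

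Expected counts were rounded. After filterByExpr (15982 of 48709 genes kept) and TMM scaling the counts were tested in edgeR 4.0.16 in R 4.3.3 (quasi-likelihood F test, 2 libraries against 2, threshold 0.05 after Benjamini-Hochberg adjustment); the scripts were tested on simulated data. The standard error is the log2 fold change over the square root of F. A count of 10 was 0.424 to 1.38 CPM by library. Symbols matched 48349 of 48709 identifiers. Starts, spans and promoters came from RefSeq tables on GRCm38.p6, and a peak counted at an overlap of 1 base. The chi-square between replicates, per degree of freedom, was 29.7 at E12.0 and 46.7 at E13.5, beyond counting noise. Genes that passed the test, or reached 5 TPM in a library, are given with each library's value. For the second list the 4 called genes farthest from 0 in each direction are named. The members, lists and tests were chosen with earlier results of these data known. Alternatives tried were DESeq2 1.42.0 and its size factors, no count filter, limma 3.58.1 on log2(TPM + 1) and log2(TPM + 0.1), no mitochondrial genes, the replicate block, other TPM and peak thresholds, windows of 500 and 2000 bases, gene ends, equal list lengths and leaving out each library. The E13.5-only regions near the genes were set against lists of equal length and −log10 q of 2 or more, alternatives chosen after seeing the data.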

Additional observations from a re-analysis of the deposited data

How the results depend on the processing

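Of the 14 deafness genes that passed the test, Ildr1, Tbc1d24, Tmie, Triobp, Ush1c and Wfs1 passed under each alternative that gave a value, 8 lost the call in at least 1 and 0 changed sign; 10 that did not pass did so in at least 1 alternative. On the log2(TPM + 1) and log2(TPM + 0.1) scales 15 and 15 deafness genes were higher (9 in the main test) and 0 and 1 lower (5), and 4 and 3 of the second list were lower (8), with the median of all genes shifted by 0.76 and 0.90. The sign turned on these scales, without a call, for Pcdh15 (0.96 and 0.99), Whrn (−0.13 and −0.13), Rdx (0.59 and 0.60), Marveld2 (0.087 and 0.090), Tmprss3 (0.64 and 0.73) and S1pr2 (0.16 and 0.16). Leaving out each RNA library in turn also turned the sign, uncalled, of Whrn (−0.28 to 0.64, negative without E12.0 replicate 2 and, at −0.26, replicate 1 of E13.5), Myh9 (−0.33 to 0.57) and Eya4 (−0.043 to 0.41), both negative without E12.0 replicate 1, Gjb2 (−0.13 to 0.63) and Gjb6 (−0.27 to 0.91), both negative without E13.5 replicate 2, and Slc26a4 (−0.20 to 1.41), negative without E12.0 replicate 2. Leaving out each RNA library gave 7 to 9 higher and 3 to 5 lower (3 without E12.0 replicate 1), and 16 to 17 higher and 7 to 12 lower for the second list; the lone library left is then assumed to vary like the other stage. Replicate numbers did not pair the libraries (correlation of deviations 0.0082). Leaving out 1 library also gave a call to Clic5, Myh14, Myo6, Pcdh15 and S1pr2. The replicate block added calls for Clic5 (1.34) and Myh14 (0.98) and removed 0.

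With a peak asked for in at least 1 library, 6 silent genes were closed at E12.0 (10 by the main rule), and 21 and 24 starts were acetylated at E12.0 and E13.5 (10 and 4). At −log10 q of 2 or more those were 5 and 1, and 2 at E13.5 in a window of 500 bases. Leaving out each H3K27ac library gave 11 to 20 and 5 to 23. Equal list lengths gave 24 open regions at E13.5 only (62) and 1 at E12.0 only (0). With −log10 q of 2 or more these were 89 and 0. The cause of these shifts was not tested. Depth limits the silent class: a gene without counts could lie anywhere under the limits given for 3 counts.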
